A study of Homo sapiens with 6 samples.

Results

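The genes described here encode enzymes and receptors of the prostaglandin pathway: the cyclooxygenases PTGS1 and PTGS2, the terminal synthases PTGES, PTGES2, PTGES3 and PTGIS, the PGE2 receptors PTGER2 and PTGER4, and the breakdown enzymes HPGD and PTGR1. They were chosen by symbol, and each of the 10 had a row among the 23346 genes of the count table. The study asked how gene expression changes when BNC2, a zinc finger protein of mesenchymal cells, is depleted. RNA was sequenced from BT549, a mesenchymal-like breast cancer cell line labelled as wild type, in 3 libraries from cells given BNC2 siRNA and 3 from cells given negative control (NC) siRNA. Both groups received 20 nM siRNA, BNC2 siRNA being a mix of 3 siRNAs in equal parts, and RNA was prepared 6 days after transfection. The methods describe the libraries of a group as biological replicates of this 1 cell line, and untransfected cells were not analysed here.

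Prostaglandins are lipid mediators made where they act. Phospholipases release arachidonate from membranes, a cyclooxygenase converts it to PGH2, and terminal synthases turn PGH2 into PGE2, PGF2α, prostacyclin or thromboxane, each of which signals through its own G protein-coupled receptors. In tumours, PTGS2 with PTGES is the best known source of PGE2, and HPGD, the first enzyme of PGE2 breakdown, is often described as its counterpart.

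The libraries held 16093978 to 18246254 counts, so that 3 counts, the upper limit that a count of 0 allows, correspond to 0.168 to 0.191 CPM (counts scaled to library size, here by edgeR's TMM method). This limit and the spread of low counts cover counting error only. BNC2 was present at 65.6, 51.4 and 58.5 CPM under NC siRNA against 35.4, 36.5 and 41.5 CPM under BNC2 siRNA, without overlap (log2 fold change -0.63, standard error 0.09). The 7 mesenchymal markers summed to 6420 to 6520 CPM in NC siRNA and 6610 to 6870 CPM in BNC2 siRNA, a sum set mostly by VIM and SPARC. Within it, single genes moved both ways without overlap between groups. CDH2 (log2 fold change 1.36), SNAI2 (1.15), FN1 (0.39), ZEB1 (0.34) and VIM (0.18) were higher in BNC2 siRNA, and SPARC (-0.52) and S100A4 (-0.62) lower. The 7 epithelial markers summed to 3.85 to 5.96 CPM against 1.51 to 1.63 CPM, with EPCAM and ESRP1 at 0 counts in each library. Most of that sum in NC siRNA was KRT18, with 94, 90 and 59 counts against 11, 5 and 7 counts in BNC2 siRNA, whereas ESRP2, below the filter, went from 8, 7 and 2 counts to 13, 23 and 17 counts. Of the other cell types, the 5 endothelial markers summed to at most 1.51 CPM, and the 6 leukocyte markers to 113 to 127 CPM against 139 to 151 CPM, nearly all of it CD68, a lysosomal protein. CD14 went the other way, from 36, 30 and 23 counts to 12, 9 and 11 counts. CD3E had 1 count in 1 library and PTPRC at most 7 counts. The part of these marker shifts in the results was not tested. In a culture of 1 cell line, fewer cells expressing a gene and less RNA in each cell cannot be told apart.

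Sequences upstream of the start sites are shown for PTGS2, the inducible cyclooxygenase, and for the 3 PGE synthase genes, which moved in different directions. Each line gives the 250 bases before the start of the RefSeq transcript nearest to the canonical start, 5′ to 3′ on the strand of the gene. They were taken from a RefSeq table of GRCh38.p14 and found once each, by exact match, on the gene's own chromosome and strand in GRCh37. Other chromosomes were not searched. GRCh37 is the assembly of the study's hg19 alignment. Coordinates are those of GRCh37, and all 4 genes lie on the minus strand. Capitals mark matches to 7 motifs searched on both strands: the TATA box (TATAAA), the E-box (CACGTG), the EGR1 site (GCGTGGGCG), the core of the antioxidant response element (TGACNNNGC) and, as they stand in PTGS2, its cyclic AMP response element (TTCGTCA), C/EBP site (TTACGCAAT) and kappaB site (GGGACTACC).
PTGS2, chr1:186649556-186649805: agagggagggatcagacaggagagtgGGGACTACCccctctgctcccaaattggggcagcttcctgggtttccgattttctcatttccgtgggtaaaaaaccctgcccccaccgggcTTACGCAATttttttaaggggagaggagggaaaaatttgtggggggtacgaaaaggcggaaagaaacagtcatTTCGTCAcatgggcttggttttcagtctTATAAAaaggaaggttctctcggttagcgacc
PTGES, chr9:132515322-132515571: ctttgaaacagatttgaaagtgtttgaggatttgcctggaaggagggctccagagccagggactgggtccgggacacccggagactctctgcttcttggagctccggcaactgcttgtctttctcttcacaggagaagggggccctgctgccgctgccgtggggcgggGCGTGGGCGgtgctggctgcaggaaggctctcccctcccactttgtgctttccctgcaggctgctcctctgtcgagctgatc
PTGES2, chr9:130890009-130890258: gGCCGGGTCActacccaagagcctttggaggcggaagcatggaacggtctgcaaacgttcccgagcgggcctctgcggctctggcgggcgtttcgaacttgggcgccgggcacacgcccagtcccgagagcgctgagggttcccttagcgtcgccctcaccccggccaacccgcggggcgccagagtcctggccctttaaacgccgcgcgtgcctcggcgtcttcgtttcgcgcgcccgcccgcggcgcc
PTGES3, chr12:57082069-57082318: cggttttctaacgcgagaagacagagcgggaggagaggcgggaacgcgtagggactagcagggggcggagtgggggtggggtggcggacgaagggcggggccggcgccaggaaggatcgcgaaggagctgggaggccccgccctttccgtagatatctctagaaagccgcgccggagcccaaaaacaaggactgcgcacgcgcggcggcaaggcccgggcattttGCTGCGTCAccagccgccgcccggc

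The PTGS2 sequence held a TATA box at -32 to -27 relative to the start, the response element at -60 to -54, the C/EBP site at -133 to -125 and the kappaB site at -224 to -216. Of the 35116 RefSeq windows of the same length, 10.7% held the TATA box letters, 0.814% those of the response element, 0.037% those of the C/EBP site and 0.114% those of the kappaB site. The letters of the last 3 were taken from PTGS2, so their match in PTGS2 was certain. PTGES held none of these 4 motifs, but an EGR1 site at -82 to -74, which 0.72% of windows held. It overlapped 1 of the GC boxes (GGGCGG, in 42.6% of windows and left in lower case, as was the CCAAT box, CCAAT, in 32.0%). PTGES2 and PTGES3 each held the antioxidant response element core on the opposite strand, at -249 to -241 and at -25 to -17, as did 10.9% of windows. The E-box, found in 6.34% of windows, was in none of the 4 sequences. PTGES2 has 3 windows in the table, and the others of PTGES2 lie 415 and 711 bases from the canonical start. The first of these, not printed, held an EGR1 site at -147 to -139 and an E-box at -128 to -123 from its own start, and the other an antioxidant response element core at -183 to -175. A window was found for 9 of the 10 members, PTGIS being the exception. These matches describe the letters and show no binding.

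Of the 10 members, 6 exceeded 1 CPM in 3 or more libraries and were tested. By edgeR's quasi-likelihood test, with p-values adjusted by Benjamini-Hochberg over the 12186 genes tested, PTGES3, PTGER2 and PTGR1 rose, PTGES and PTGES2 fell, and PTGER4 was not called at an adjusted p-value of 0.05. A call was common in these libraries: 72.9% of the genes tested were called, 36.6% up and 36.2% down. Among the members tested, the groups did not overlap in 2 that were higher and 2 that were lower, where 74.9% of all genes tested had groups that did not overlap. The median log2 fold change was 0.12 over the 6 members tested and 0.00 over all genes tested. PTGES was above 1 CPM in each NC siRNA library but in only 2 of the 3 BNC2 siRNA libraries, so that the NC siRNA group alone carried it past the filter. PTGS1, PTGS2, PTGIS and HPGD were too low to be tested. Where the filter was dropped, 53.3% of 18121 genes were called, and none of the 3 of these with any count was.

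**Figure D1:**
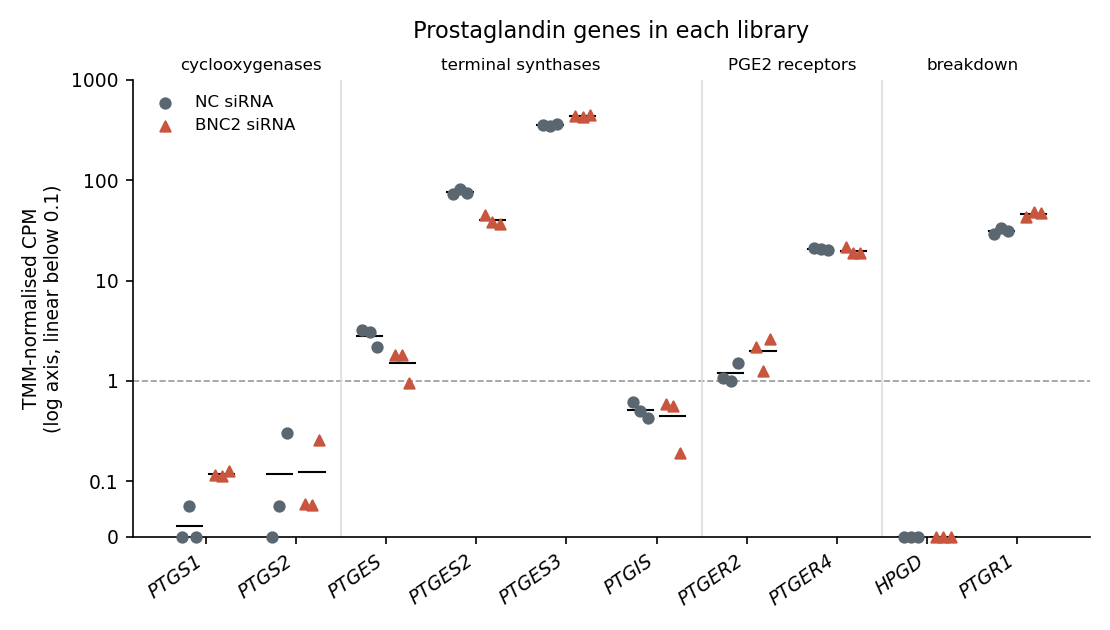
TMM-normalised CPM of the 10 members in each library (log axis, linear below 0.1), with circles for NC siRNA, triangles for BNC2 siRNA, bars for the mean of 3 libraries and a dashed line at 1 CPM. PTGES and PTGES2 sit lower and PTGES3 and PTGR1 higher in each BNC2 siRNA library, the PTGER2 and PTGER4 groups overlap, and the cyclooxygenases stay below 1 CPM and HPGD at 0.

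Both cyclooxygenase genes were at the edge of detection. PTGS1 (COX-1, chr9:125132809-125157982, plus strand), the constitutive enzyme of many tissues, gave 0, 1 and 0 counts under NC siRNA and 2 counts in every library under BNC2 siRNA. All of these are at or below 3 counts, so no fold is given. PTGS2 (COX-2, chr1:186640923-186650054, minus strand), which cytokines and growth factors induce in many cells, had 0, 1 and 5 counts in NC siRNA and 1, 1 and 4 counts in BNC2 siRNA. The groups overlapped, and a change of PTGS2 was not detectable at this depth: without the filter its log2 fold change was 0.07, with a 95% interval from -2.04 to 2.18. Per length of the canonical transcript, PTGS2 reached 0.026 CPM per kb in NC siRNA and 0.027 CPM per kb in BNC2 siRNA, the lowest level of any member other than PTGS1 and HPGD. Ratios of PTGS2 to PTGS1, of PTGS2 to HPGD and of PTGES to PTGS2 could not be formed, since at least 1 gene of each pair had 3 counts or fewer in some library.

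Of the 3 PGE synthases, 2 fell and 1 rose, though PTGES, 1 of the 2 that fell, passed the filter through NC siRNA alone. PTGES (mPGES-1, chr9:132500610-132515321, minus strand) is the microsomal synthase that is usually induced together with PTGS2. It had 3.21, 3.08 and 2.17 CPM in NC siRNA and 1.80, 1.80 and 0.954 CPM in BNC2 siRNA. Each BNC2 siRNA library was below each NC siRNA library, though the gap between the lowest NC siRNA library and the nearest BNC2 siRNA library was 36 against 32 counts. Its log2 fold change was -0.88 (standard error 0.26, edgeR's quasi-likelihood test, adjusted p = 0.0061), or 54.4% of the control level. PTGES2 (mPGES-2, chr9:130882972-130890741, minus strand), a membrane-associated synthase found in most tissues, was far more abundant. It had 72.1, 81.3 and 74.3 CPM in NC siRNA and 45.0, 38.3 and 36.8 CPM in BNC2 siRNA. The groups stood well apart (log2 fold change -0.92, standard error 0.08, adjusted p = 2.39e-08 by the same test). PTGES3 (p23, chr12:57057125-57082192, minus strand), a cytosolic PGE synthase better known as a co-chaperone of HSP90, had 352.8, 346.6 and 362.7 CPM in NC siRNA and 439.6, 424.2 and 447.7 CPM in BNC2 siRNA. Every BNC2 siRNA library was above every NC siRNA library, by a smaller factor (log2 fold change 0.30, standard error 0.05, adjusted p = 6.76e-05 by the same test). The genome annotation lists 5 pseudogenes named after PTGES3, and reads that fit more than 1 place were not counted, so reads shared with them are missing from its level.

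Per length of transcript, the PGE synthases kept their order. The level was 186.5 CPM per kb for PTGES3, 47.5 for PTGES2 and 1.61 for PTGES in NC siRNA, and 230.3, 25.1 and 0.868 CPM per kb in BNC2 siRNA. Within the sum of the 3 genes, PTGES2 took 19.4%, 21.6% and 19.5% under NC siRNA against 10.8%, 9.65% and 8.88% under BNC2 siRNA. The share of PTGES was 0.787%, 0.747% and 0.518% in NC siRNA and 0.395%, 0.414% and 0.210% in BNC2 siRNA. Transcripts of PTGES3 thus made up 77.6% to 80.0% of the sum in NC siRNA and 88.8% to 90.9% in BNC2 siRNA, without overlap.

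**Figure D2:**
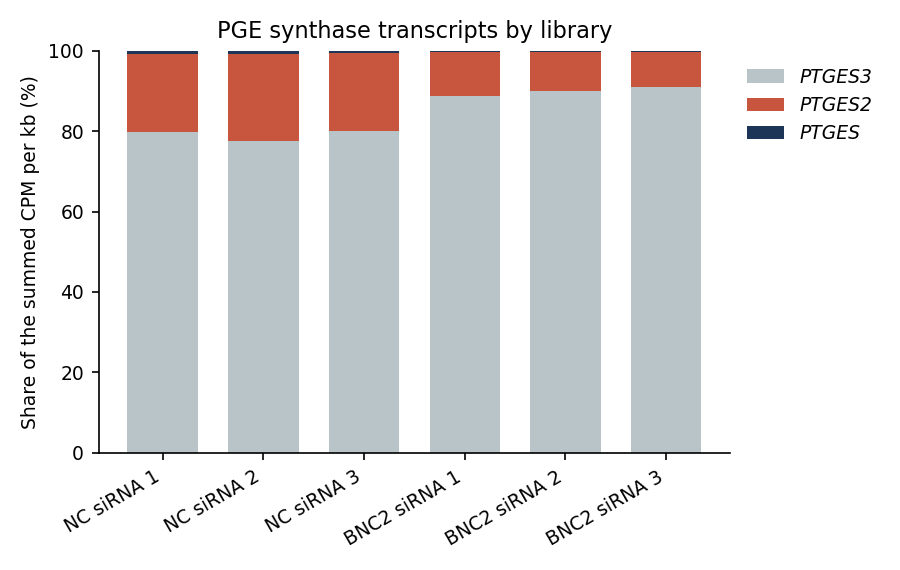
Share of each PGE synthase gene in the sum of the 3 (CPM per kb of canonical transcript, in percent), 1 bar for each library. The PTGES2 share lies between 19.4% and 21.6% in NC siRNA and between 8.88% and 10.8% in BNC2 siRNA, and PTGES is a thin band at the top.

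PTGIS, the prostacyclin synthase (chr20:48120411-48184674, minus strand), had 11, 9 and 7 counts in NC siRNA and 10, 10 and 3 counts in BNC2 siRNA. The groups overlapped, and without the filter on low counts the log2 fold change was -0.16 (95% interval from -1.21 to 0.89, adjusted p = 0.816 by edgeR's quasi-likelihood test).

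Both PGE2 receptors act through Gs and cyclic AMP, and EP4 also through phosphoinositide 3-kinase. PTGER4 (EP4, chr5:40680017-40693837, plus strand) had 21.3, 20.6 and 20.2 CPM in NC siRNA and 21.6, 18.9 and 19.0 CPM in BNC2 siRNA, and the highest and the lowest library were both from BNC2 siRNA. Its log2 fold change was -0.06 (95% interval from -0.25 to 0.13, adjusted p = 0.554 by edgeR's quasi-likelihood test). PTGER2 (EP2, chr14:52781023-52795316, plus strand) was lower, with 1.07, 1.01 and 1.50 CPM in NC siRNA and 2.15, 1.24 and 2.61 CPM in BNC2 siRNA. The groups overlapped in 1 library of each, the lowest of BNC2 siRNA lying below the highest of NC siRNA. The test called a rise (log2 fold change 0.73, standard error 0.30, adjusted p = 0.0372 by edgeR's quasi-likelihood test). This call was lost in DESeq2 (adjusted p = 0.0701), on scaling by total counts (0.0566) and on leaving out NC siRNA library 1 (0.0789), NC siRNA library 2 (0.109), BNC2 siRNA library 1 (0.0994) or BNC2 siRNA library 3 (0.184). Per length, PTGER4 stood at 6.03 CPM per kb and PTGER2 at 0.486 CPM per kb in NC siRNA, and at 5.78 and 0.813 CPM per kb in BNC2 siRNA.

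The 2 breakdown enzymes differed in whether they were detected at all. HPGD (chr4:175411326-175444305, minus strand), which oxidises the 15-hydroxyl of prostaglandins, had 0 counts in each of the 6 libraries, which allows a level of up to 0.191 CPM in the shallowest library. PTGR1 (chr9:114312002-114362173, minus strand), which reduces the 15-oxo products and also inactivates leukotriene B4, had 29.4, 33.0 and 31.1 CPM in NC siRNA and 43.4, 47.7 and 47.0 CPM in BNC2 siRNA. Each BNC2 siRNA library was above each NC siRNA library (log2 fold change 0.56, standard error 0.08, adjusted p = 4.54e-06 by edgeR's quasi-likelihood test), a rise of 1.48-fold. PTGR1 lies opposite ZNF483, and PTGER4 opposite TTC33. The counts are of 1 strand, and reads on the other strand were at most 1.83% of those of any member.

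**Figure D3:**
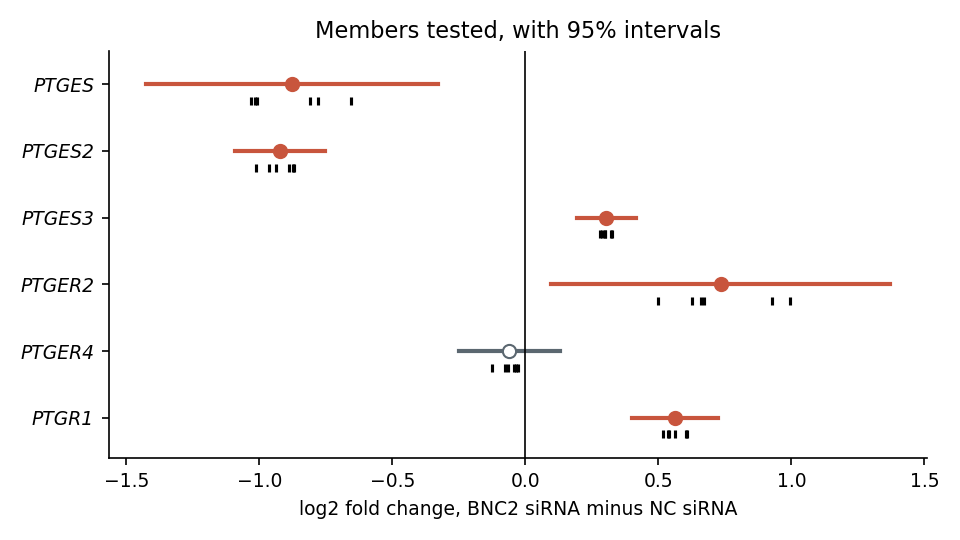
Log2 fold change (BNC2 siRNA minus NC siRNA) of the 6 members tested, with 95% intervals as lines, filled points where edgeR's test called the gene and an open point where it did not. Small ticks show the value with each library left out in turn: those of PTGER2 spread from 0.50 to 0.99, and those of PTGES3 from 0.28 to 0.33.

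Set in order per length in NC siRNA, the members ran from PTGES3 over PTGES2, PTGR1, PTGER4, PTGES, PTGER2, PTGIS and PTGS2 to PTGS1 and HPGD. In BNC2 siRNA, PTGR1 (28.8 CPM per kb) stood above PTGES2 (25.1 CPM per kb), whereas in NC siRNA PTGES2 (47.5 CPM per kb) stood above PTGR1 (19.5 CPM per kb). PTGES and PTGER2 came close to each other in BNC2 siRNA, at 0.868 and 0.813 CPM per kb, and the means of PTGS2 and PTGS1 there rest on 6 counts each.

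The pathway around the members was followed through 8 lists holding 106 further genes, of which 60 were tested, 22 rose and 25 fell. Among those that fell, TBXAS1, ALOXE3, ALOX5AP, NR4A1 and NR4A3 passed the filter through NC siRNA alone. In these and the following counts the call is that of edgeR's quasi-likelihood test, and the share called among all genes tested is 72.9%. Of the 25 genes that can supply arachidonate, 10 were tested, 5 fell and 1 rose, with a median log2 fold change of -0.41. PNPLA8, a calcium-independent phospholipase of mitochondria and peroxisomes, had 31.9, 29.4 and 28.4 CPM in NC siRNA and 6.39, 7.05 and 4.96 CPM in BNC2 siRNA (log2 fold change -2.28, standard error 0.12). DAGLA, the diacylglycerol lipase that makes 2-arachidonoylglycerol, went from 11.2, 12.2 and 12.8 CPM to 2.79, 2.71 and 3.37 CPM (log2 fold change -2.03, standard error 0.14). In both genes every BNC2 siRNA library lay far below every NC siRNA library. PLA2G4C, a cytosolic phospholipase A2 that does not need calcium, fell by 1.66 on the log2 scale and PLA2G16 (PLAAT3), a phospholipase of adipose tissue, by 1.03. PLA2G15, a lysosomal phospholipase and the list's most abundant gene per length, rose by 0.53. PLA2G4A, the cytosolic phospholipase most closely tied to prostaglandin synthesis, is outside the naming rule and was picked after its values were seen: it had 6.19, 7.55 and 5.59 CPM in NC siRNA and 6.62, 7.55 and 7.95 CPM in BNC2 siRNA, and the groups overlapped (log2 fold change 0.19, 95% interval from -0.12 to 0.50).

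Synthases of the other prostanoids, listed together with carbonyl reductases, fell where they could be tested. Of the 9 genes on the list, 6 were tested and all 6 fell, with a median log2 fold change of -1.21. AKR1C3, a PGF synthase that also reduces steroids, had 25.5, 28.5 and 28.8 CPM in NC siRNA and 2.09, 1.63 and 1.53 CPM in BNC2 siRNA. It fell by 3.97 on the log2 scale (standard error 0.14, adjusted p = 3.29e-13 by edgeR's quasi-likelihood test), the largest change among the 60 genes tested. AKR1C3 has closely similar neighbours in its family, and reads shared with them were not counted, so its value is uncertain to that extent. AKR1B1, aldose reductase and a PGF synthase as well, had 122.8, 123.5 and 119.3 CPM in NC siRNA and 45.5, 43.9 and 45.2 CPM in BNC2 siRNA (log2 fold change -1.44, standard error 0.06). The carbonyl reductases CBR3 and CBR1, the second of which converts PGE2 to PGF2α, fell by 2.22 and by 0.26 on the log2 scale. On counts of both strands, CBR1 had a log2 fold change of -0.46. FAM213B (PRXL2B), a prostamide and PGF synthase, and TBXAS1, the thromboxane synthase, both fell by 0.98. TBXAS1 passed the filter through NC siRNA alone, its groups were separated by 25 against 24 counts at the nearest libraries, and its call was lost without BNC2 siRNA library 2 (log2 fold change -0.62, adjusted p = 0.0938 by edgeR's quasi-likelihood test). These 2 genes are outside the naming rule and were named after their values were seen, to complete the list of 6. HPGDS and PTGDS, the PGD synthases, had 0 counts and 1 count in all 6 libraries together.

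**Figure D4:**
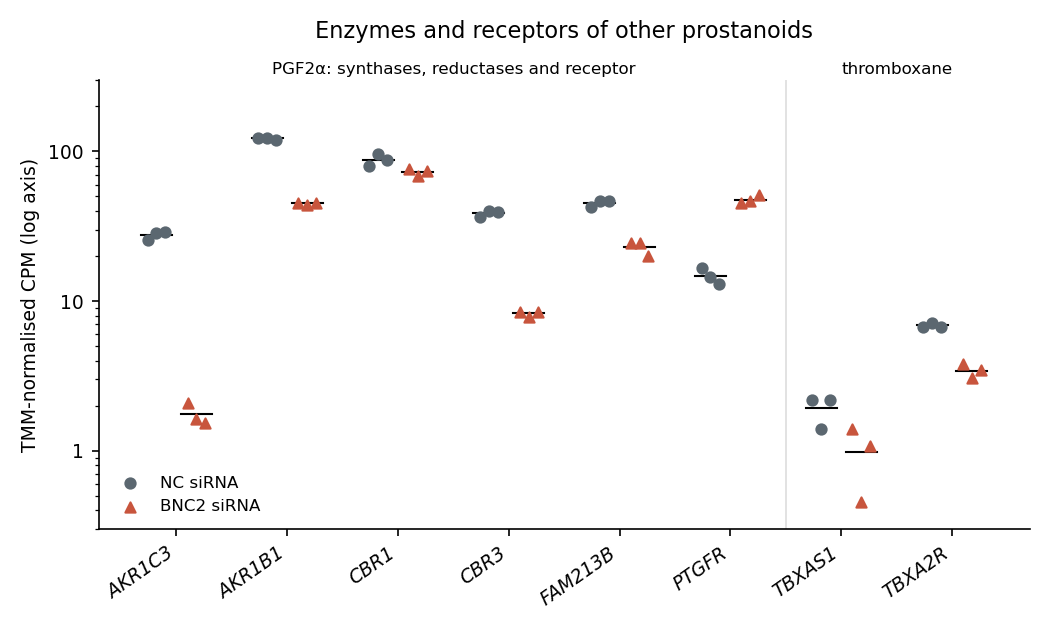
TMM-normalised CPM (log axis) in each library of synthases and receptors of PGF2α and thromboxane, and of the carbonyl reductases CBR1 and CBR3. Circles are NC siRNA, triangles BNC2 siRNA and bars the mean of 3 libraries. The 7 other genes are lower in each BNC2 siRNA library (TBXAS1 by 25 against 24 counts at the nearest), whereas PTGFR is higher in each, at 44.9 to 51.5 CPM against 12.9 to 16.5 CPM.

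The receptors of those prostanoids moved both ways. PTGFR, the PGF2α receptor, had 16.5, 14.5 and 12.9 CPM in NC siRNA and 44.9, 46.4 and 51.5 CPM in BNC2 siRNA (log2 fold change 1.70, standard error 0.10, adjusted p = 1.14e-10 by edgeR's quasi-likelihood test). It was higher in each BNC2 siRNA library, whereas the PGF synthases were lower in each. A link between these changes was not tested. TBXA2R, the thromboxane receptor, had 6.75, 7.16 and 6.68 CPM in NC siRNA and 3.78, 3.04 and 3.44 CPM in BNC2 siRNA (log2 fold change -1.01, standard error 0.15). Of the list's 8 genes, 3 were tested, 1 rose, 1 fell and 1 was not called. PTGER3 (EP3) and PTGIR (the prostacyclin receptor) were below the filter and were picked after their values were seen. PTGER3 had 11, 5 and 8 counts in NC siRNA and PTGIR 8, 6 and 4 counts, and both had 0 counts in each BNC2 siRNA library. Against 3 counts per library, PTGER3 was at least 2.58-fold lower and PTGIR at least 1.92-fold lower in BNC2 siRNA.

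Genes of prostaglandin transport and further breakdown were tested for 6 of 12, and 4 rose while 2 fell, with a median log2 fold change of 0.31. SLCO4A1 and SLCO3A1, members of the organic anion transporter family to which the prostaglandin carriers belong, fell by 1.12 and 1.21 on the log2 scale. SLCO4A1, the list's most abundant gene per length, had 106.2, 104.0 and 105.1 CPM in NC siRNA and 52.7, 44.1 and 48.4 CPM in BNC2 siRNA. The 4 that rose were picked for naming after their values were seen. SLCO2A1, the prostaglandin uptake carrier, rose by 0.84, PTGR2 and ZADH2 (PTGR3), which like PTGR1 reduce 15-oxo prostaglandins, by 0.84 and 0.35, and ABCC4, an exporter of PGE2, by 0.27.

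**Figure D5:**
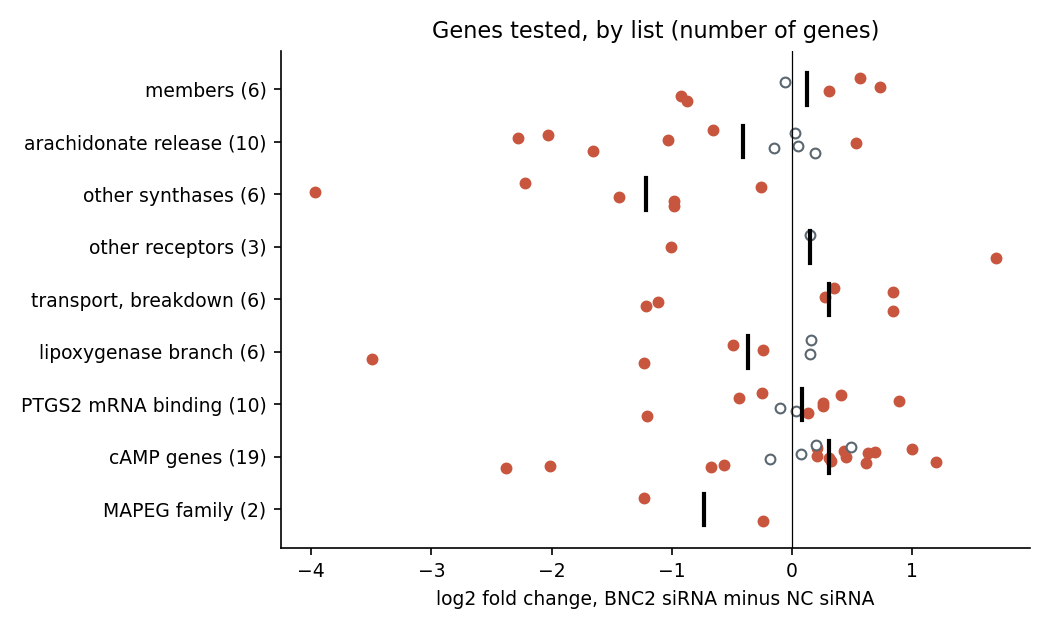
Log2 fold change (BNC2 siRNA minus NC siRNA) of the genes tested, 1 point for each gene, by list with the number of genes tested in brackets, filled where edgeR's test called the gene, with a bar at the list's median. All 6 points of the other synthases lie below 0, with a median of -1.21, whereas the 6 members lie on both sides, with a median of 0.12. Among these genes, TBXAS1 and PTGES passed the filter through NC siRNA alone.

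In the neighbouring lipoxygenase and leukotriene branch, 6 of 19 genes were tested, 4 fell and none rose, with a median log2 fold change of -0.36. ALOXE3, an epidermal hydroperoxide isomerase, had 1.52, 1.34 and 2.05 CPM in NC siRNA and 0.116, 0.225 and 0.0636 CPM in BNC2 siRNA (log2 fold change -3.49, standard error 0.45). ALOX5AP, the activating protein of 5-lipoxygenase, fell by 1.23, although ALOX5 itself had 0 counts in each library. Both ALOXE3 and ALOX5AP passed the filter through the NC siRNA libraries alone, where they were higher. ALOX5AP and MGST3, a microsomal glutathione transferase that fell by 0.24, were the 2 genes tested among the 5 relatives of PTGES in its membrane enzyme family. The call of MGST3 was lost without NC siRNA library 2 (adjusted p = 0.0665) or BNC2 siRNA library 2 (0.0660) in edgeR's quasi-likelihood test, which left 1 of these genes called.

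Transcripts of most listed proteins that bind the PTGS2 messenger passed the filter, although the messenger itself was nearly absent. Of the 11 on the list, 10 were tested, 5 rose and 3 fell, with a median log2 fold change of 0.09. ZFP36 (tristetraprolin), which speeds the decay of AU-rich messengers, had 93.6, 82.3 and 86.8 CPM in NC siRNA and 38.8, 36.9 and 38.0 CPM in BNC2 siRNA (log2 fold change -1.21, standard error 0.07). Its relative ZFP36L1, the list's most abundant gene per length, rose by 0.14 (adjusted p = 0.0377 by edgeR's quasi-likelihood test), a call that was lost on scaling by total counts (adjusted p = 0.319) and on leaving out NC siRNA library 2 (0.176), BNC2 siRNA library 1 (0.110) or BNC2 siRNA library 2 (0.135).

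Downstream of EP2 and EP4, 19 of 21 genes of the cyclic AMP pathway and its responses were tested, 11 rose and 4 fell, with a median log2 fold change of 0.31. Components of the pathway were among those that rose. GNAS, which encodes the stimulatory G protein subunit, had 1182, 1336 and 1334 CPM in NC siRNA and 1837, 1691 and 1674 CPM in BNC2 siRNA (log2 fold change 0.43, standard error 0.06). ADCY3, an adenylyl cyclase, rose by 1.00 on the log2 scale, and PDE4D, a phosphodiesterase that degrades cyclic AMP, by 1.20. Of the immediate early nuclear receptors that cyclic AMP induces in many cells, NR4A1 had 5.29, 8.79 and 6.32 CPM in NC siRNA and 1.69, 1.41 and 0.763 CPM in BNC2 siRNA (log2 fold change -2.38, standard error 0.25). NR4A3 fell by 2.02. Both genes passed the filter through NC siRNA alone, with 1 BNC2 siRNA library of NR4A1 and 2 of NR4A3 below 1 CPM.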

How the data were processed

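RNA-seq of 3 BNC2 siRNA and 3 NC siRNA libraries was analysed, grouped by their labels. The authors aligned single-end reads of poly(A) RNA to hg19 with STAR 2.6.1d (iGenomes UCSC annotation) and deposited counts of uniquely mapped reads per gene, without normalisation. In all 23346 genes the deposited table equals STAR's reverse-strand column. Reads assigned to no gene (37.7% to 41.1% of a library) were left out. The labels name another transfection reagent than the methods do.

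The 12186 genes above 1 CPM in 3 or more libraries were tested with edgeR 4.0.16 (R 4.3.3): TMM factors of 0.972 to 1.04, quasi-likelihood test without a block, Benjamini-Hochberg adjustment over all genes tested, and a threshold of 0.05. The standard error is the log2 fold change divided by the square root of F. Against a group at 0 counts, folds were computed with 3 counts per library. With 3 libraries against 3, p-values come from the model across genes. The script was tested on simulated counts. Libraries of a group differed by more than sampling noise (chi-square per degree of freedom 3.50 to 11.9).

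Members and lists were chosen with earlier results of these data known. Beside the 10 members, each list's called genes with an absolute log2 fold change of at least 1 and without overlap (at most 4) and its most abundant gene per length were named. Lengths and positions are from GENCODE release 44 on GRCh37, with the Ensembl canonical transcript. Alternatives were the likelihood ratio test, DESeq2 1.42.0, its size factors, total counts, no filter on low counts, filterByExpr, counts of both strands, a replicate block and leaving out each library. Protein sequences were not used here.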

Additional observations from a re-analysis of the deposited data

How the results depend on the processing

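Of the 686 recomputed values, 668 kept their direction and side of the threshold or, for counts, moved by at most 1.5 times. Of the others, 14 lost the threshold, 4 counts moved by over 1.5 times and 0 reversed. Many of the 686 values are of genes named because they were called with a large change, which favours a kept call. Between 4 and 5 members were called, PTGES and PTGES2 down and PTGES3 and PTGR1 up under each alternative, while the log2 fold change of PTGER2 fell short of the threshold in DESeq2 (0.73, adjusted p = 0.0701) and on scaling by total counts (0.66, adjusted p = 0.0566). With each library left out in turn it ranged from 0.50 to 0.99 and was not called in 4 of 6 cases. The cause was not tested. For PTGES the range was -1.03 to -0.65 and for PTGR1 0.52 to 0.61. PTGES passed the filter through NC siRNA alone. The fits with a library left out kept the filter made on all libraries, so its entry was not tried again there. The number of genes called was between 8271 and 9662.

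Library numbers did not pair the samples: the correlations of the deviations of same-numbered libraries were -0.21, -0.08 and -0.13. With a replicate block the log2 fold change was -0.89 for PTGES, -0.92 for PTGES2, 0.30 for PTGES3, 0.73 for PTGER2 and 0.56 for PTGR1, all called by edgeR's quasi-likelihood test, whereas ZFP36L1 (0.14, adjusted p = 0.103) lost its call. With no filter on low counts, 4 genes of the other receptors and 9 of the lipoxygenase branch were called, as more genes were tested. TBXAS1 was not called without BNC2 siRNA library 2 (adjusted p = 0.0938), nor MGST3 without NC siRNA library 2 (adjusted p = 0.0665) or BNC2 siRNA library 2 (0.0660). At this depth a change of PTGS1, PTGS2 or HPGD was not detectable, and none was detected in PTGIS, with an interval of the log2 fold change from -1.21 to 0.89.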
